A study of Sus scrofa with 15 samples.

Results

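The genes described here are the receptors of the interleukin 6 (IL-6) cytokine family, the kinase and the transcription factor they act through, and the SOCS proteins that switch them off, measured as RNA in the liver of piglets 4 h after lipopolysaccharide (LPS). They were chosen by name: IL6R, IL6ST, OSMR, LIFR, JAK2, STAT3, SOCS1, SOCS2, SOCS3 and CISH. Of these 10 genes, 9 have a row among the 31908 Ensembl pig genes of the deposited count table and all 9 passed the filter on low counts, which left 12774 genes for testing. SOCS2 has no row under its identifier and was not analysed here.

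The study used male piglets of a Duroc x Large White x Landrace cross in the growing stage. The LPS group was injected intraperitoneally with LPS at 80 μg/kg, and the control (CON) group with sterile saline at an equal dose. The labels name no genetic change and no other treatment in either group. Each group gave 3 libraries of sonicated polyadenylated liver RNA, the input fraction of an m6A immunoprecipitation experiment, and the m6A fractions were not analysed here. The sources do not say that each library came from a different piglet, so p-values measure the spread between these libraries, and in whole liver fewer cells of a type and less RNA per cell cannot be told apart.

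IL-6 family cytokines bind a receptor chain of their own, such as IL6R, and signal through the shared chain gp130, encoded by IL6ST, alone or paired with OSMR or LIFR. Janus kinases, JAK2 among them, then phosphorylate STAT3, which enters the nucleus. In hepatocytes this pathway is known for turning on acute phase plasma proteins. Among the genes it turns on are SOCS3 and SOCS1, whose proteins block the kinases and the receptor and so end the signal, while CISH is the related inhibitor best known downstream of STAT5.

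The CON libraries held 5927348 to 10351491 counts in total and the LPS libraries 4348478 to 19967417, so low genes are measured less precisely in LPS replicate 1 than in LPS replicate 3. Values are given as CPM, the count of a gene for every 1e+06 counts of its library after TMM scaling of the library sizes. The scaling factor was 0.735 in LPS replicate 3 and 0.979 to 1.11 elsewhere. Hepatocyte markers were present in every library, with summed levels of 47363 to 62723 CPM in CON and 29984 to 56029 CPM in LPS over the 10 genes of the list. Of all tested genes, 50.2% lay inside the CON range in LPS replicate 2, against 30.8% and 27.9% in LPS replicates 1 and 3, and this library stood apart for most members too. Results are therefore given with and without it. Singling out this library rests partly on the members' own values, so calls and adjusted p-values without it are descriptive.

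The data showed one pattern across most of the members. In LPS replicates 1 and 3, SOCS3, CISH and SOCS1 stood 3.95-fold to 20.8-fold above the CON mean and IL6R, OSMR and STAT3 1.65-fold to 3.46-fold above it. In LPS replicate 2 none of these 6 genes lay above the CON range. IL6ST, LIFR and JAK2 had fitted ratios of LPS to CON of 0.940, 0.892 and 1.21. The quasi-likelihood test of edgeR on the 6 libraries called 0 of the 9 members (adjusted by the Benjamini-Hochberg method, p below 0.05, and past a 1.5-fold difference), where 0.0548% of all tested genes were called higher and 0% lower. At an unadjusted p below 0.05 it gave 3 members higher, SOCS3, CISH and SOCS1, and 0 lower, against 6.18% and 6.33% of all tested genes. DESeq2 called 1 member, CISH, where it called 1.91% of the genes with an adjusted p higher and 0.995% lower, and limma-voom called 0, where it called 0.0157% higher. Without LPS replicate 2, edgeR called these same 3 SOCS family genes higher and 0 members lower, where it called 3.76% of 13632 tested genes higher and 3.45% lower. With no filter on low counts edgeR called them too, at 2.28% of 23529 genes higher and 1.48% lower. In that fit the log2 fold change of CISH was 2.37 with a standard error of 0.41, against 2.39 and 0.72 with the filter. Log2 fold changes below are LPS over CON ± their standard error.

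**Figure D1:**
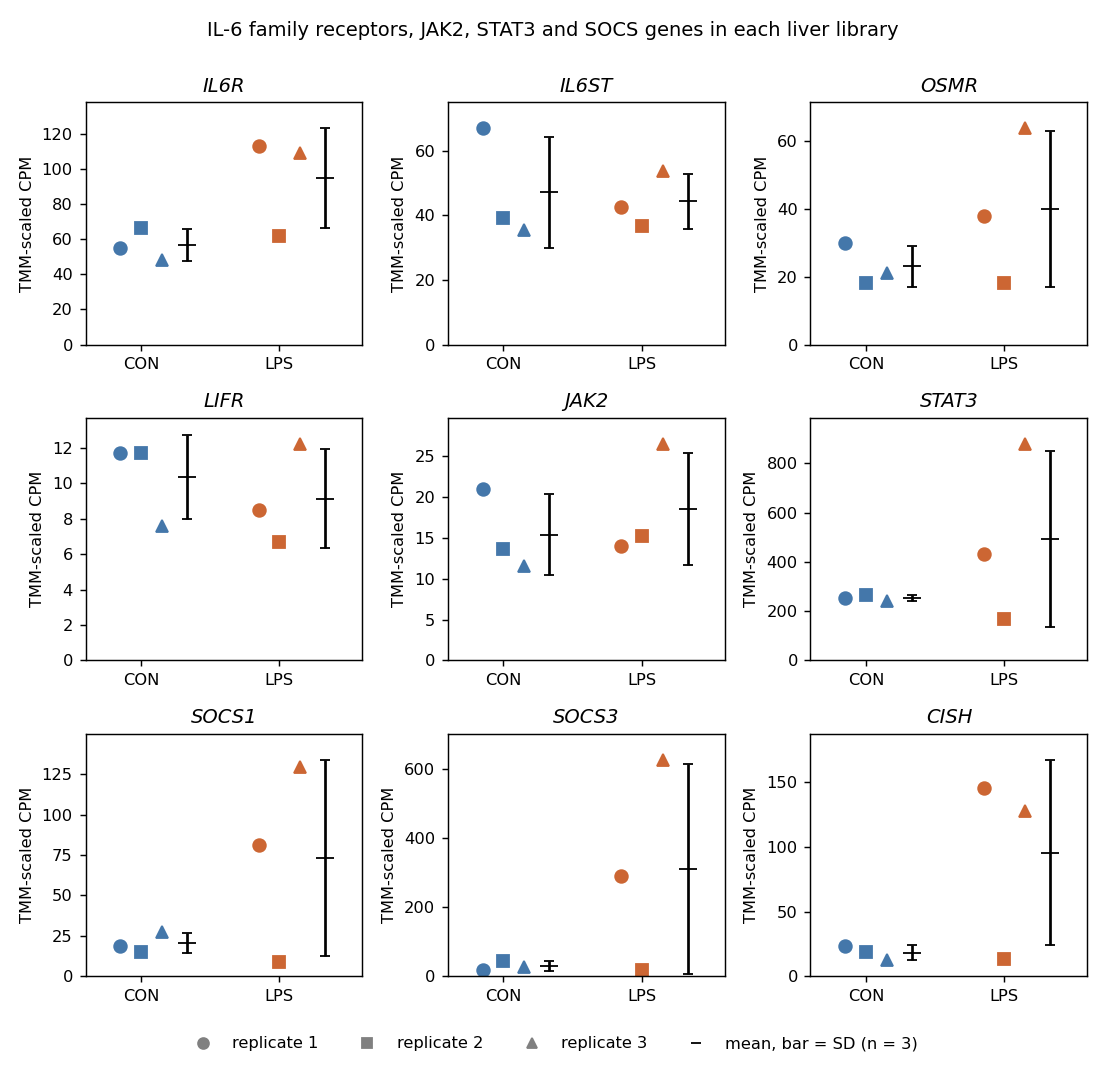
Each panel plots TMM-scaled CPM of 1 gene on a linear axis from 0, with the 3 CON libraries in blue and the 3 LPS libraries in orange, the symbol giving the replicate and the black bar the mean ± SD (n = 3). For SOCS1, SOCS3 and CISH, LPS replicates 1 and 3 lie far above the CON libraries and LPS replicate 2 lies among or below them, while for IL6ST and LIFR the groups overlap.

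SOCS3 encodes the inhibitor that binds phosphorylated gp130 and the attached kinases. The gene (ENSSSCG00000036956) lies on the plus strand of chromosome 12 from 3643929 to 3647012, where the build of the coordinates is not stated in what was read here. It had 17.5, 45.1 and 27.6 CPM in CON replicates 1, 2 and 3 and 289, 18.8 and 627 CPM in LPS replicates 1, 2 and 3. LPS replicates 1 and 3 were 9.62-fold and 20.8-fold above the CON mean, and LPS replicate 2, at 0.625 of that mean, lay inside the CON range, so the groups overlapped. Its fitted log2 fold change was 3.38 ± 0.98 (unadjusted p = 0.00729, edgeR adjusted p = 0.230), the largest of the 9 members. Without LPS replicate 2 it was 3.94 ± 0.49 (edgeR adjusted p = 0.00184), whereas leaving out LPS replicate 3 gave 2.38 ± 1.04 (edgeR adjusted p = 0.447). LPS replicates 2 and 3 differed 33.3-fold, more than the 10.4-fold difference fitted between the groups.

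CISH encodes CIS, an inhibitor of the same family that competes with STAT5 for docking sites on cytokine receptors. The gene (ENSSSCG00000040581, chromosome 13 from 33084873 to 33090615, minus strand) had 23.7, 18.4 and 12.5 CPM in the CON libraries and 146, 13.4 and 127 CPM in LPS replicates 1, 2 and 3. Unlike SOCS3, it was highest in LPS replicate 1, and LPS replicate 2 was again inside the CON range. With all libraries the log2 fold change was 2.39 ± 0.72 (unadjusted p = 0.00892, edgeR adjusted p = 0.245). DESeq2, whose fit gave 2.44 ± 0.64, called it with an adjusted p of 0.00906. Without LPS replicate 2 the edgeR value was 2.91 ± 0.37 (edgeR adjusted p = 0.00186). Leaving out LPS replicate 1 or 3 gave 1.97 ± 0.77 and 2.15 ± 0.89 (edgeR adjusted p = 0.568 and 0.423). Leaving out any 1 of the CON libraries gave an edgeR adjusted p from 0.460 to 0.706. Limma-voom with all libraries did not call CISH (adjusted p = 0.387).

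SOCS1 encodes the inhibitor that acts on the Janus kinases themselves and is best known as a brake on interferon signaling. The gene (ENSSSCG00000027855, chromosome 3 from 31881225 to 31884969, plus strand) had 18.9, 15.2 and 27.7 CPM in the CON libraries and 81.3, 9.0 and 129 CPM in LPS replicates 1, 2 and 3. LPS replicate 2 was here below every CON library, at 0.438 of the CON mean, while LPS replicates 1 and 3 were 3.95-fold and 6.29-fold above it. For this gene the log2 fold change was 1.83 ± 0.75 (unadjusted p = 0.0359, edgeR adjusted p = 0.364). Without LPS replicate 2 it was 2.36 ± 0.38 (edgeR adjusted p = 0.00576), and DESeq2 with all libraries gave an adjusted p of 0.104.

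STAT3, the transcription factor at the end of the pathway, was the member with the smallest spread among CON libraries. The gene (ENSSSCG00000017403, chromosome 12 from 20407233 to 20472993, plus strand) had 252, 266 and 243 CPM in CON, a coefficient of variation of 4.44%, against 431, 169 and 878 CPM in LPS replicates 1, 2 and 3, a coefficient of variation of 72.7%. All 3 LPS libraries lay outside the narrow CON range, 2 of them above it and LPS replicate 2 below it. The log2 fold change was 0.96 ± 0.51 (edgeR adjusted p = 0.480). It was 0.26 without LPS replicate 3 and 1.37 without LPS replicate 2 (edgeR adjusted p = 0.848 and 0.0525). When DESeq2 was run without LPS replicate 2, which was added once the data had been seen, it called STAT3 at 1.41 (adjusted p = 0.00739), in a fit that called 5.33% of genes with an adjusted p higher and 5.03% lower.

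JAK2, one of the kinases bound to gp130, had 20.9, 13.6 and 11.6 CPM in CON and 14, 15.2 and 26.4 CPM in LPS replicates 1, 2 and 3 (ENSSSCG00000005215, chromosome 1 from 216848686 to 217002148, minus strand). LPS replicate 3 alone was above the CON libraries. Its fitted log2 fold change was 0.28 ± 0.38 (edgeR adjusted p = 0.797), or -0.06 when LPS replicate 3 was left out. JAK2 was the single member in which LPS replicate 2 was not the lowest LPS library. LPS replicate 2 was the lowest LPS library in 8 of the 9 members and in 33.2% of all tested genes.

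IL6R, which encodes the chain that binds IL-6 itself (ENSSSCG00000027628, chromosome 4 from 95322426 to 95381282, minus strand), had 55.1, 66.4 and 48.4 CPM in CON and 113, 62.0 and 109 CPM in LPS replicates 1, 2 and 3. LPS replicates 1 and 3 stood close together and above all CON libraries, and LPS replicate 2 was inside the CON range. With all libraries the log2 fold change was 0.74 ± 0.33 (unadjusted p = 0.0509, edgeR adjusted p = 0.401). It varied less than that of STAT3 or OSMR when single libraries were left out, from 0.61 to 0.98.

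OSMR, the chain that pairs with gp130 to bind oncostatin M, had 29.8, 18.1 and 21.2 CPM in CON and 37.9, 18.2 and 63.7 CPM in LPS replicates 1, 2 and 3 (ENSSSCG00000016851, chromosome 16 from 24041567 to 24102179, plus strand). Its LPS libraries stood in the same order as those of STAT3, with LPS replicate 2 at the bottom of the CON range. For this gene the log2 fold change was 0.80 ± 0.45 (edgeR adjusted p = 0.501), against 0.30 when LPS replicate 3 was left out. DESeq2 without LPS replicate 2 called OSMR at 1.19 (adjusted p = 0.0489), while edgeR without the same library gave 1.15 with an adjusted p of 0.0845.

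IL6ST, the shared gp130 chain, had 66.9, 39.1 and 35.6 CPM in CON and 42.5, 36.8 and 53.7 CPM in LPS (ENSSSCG00000016916, chromosome 16 from 35101304 to 35211982, minus strand). All 3 LPS libraries lay inside the CON range, which CON replicate 1 had widened. The log2 fold change was -0.09 ± 0.34 (edgeR adjusted p = 0.940). Without CON replicate 1 it was 0.25.

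LIFR, the receptor chain for leukemia inhibitory factor, had 11.7, 11.7 and 7.61 CPM in CON and 8.5, 6.71 and 12.2 CPM in LPS replicates 1, 2 and 3 (ENSSSCG00000016850, chromosome 16 from 23631195 to 24042240, minus strand). Its fitted log2 fold change was -0.16 ± 0.37 (edgeR adjusted p = 0.891), and its sign changed with the library left out, between -0.43 and 0.02. The standard errors of IL6ST and LIFR leave room for a difference of either sign that these 6 libraries could not resolve. The spans of LIFR and OSMR overlap at one end on opposite strands, and that of SOCS3 overlaps TK1, but the exons of the members share 0 bases with the exons of any other gene in the table.

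**Figure D2:**
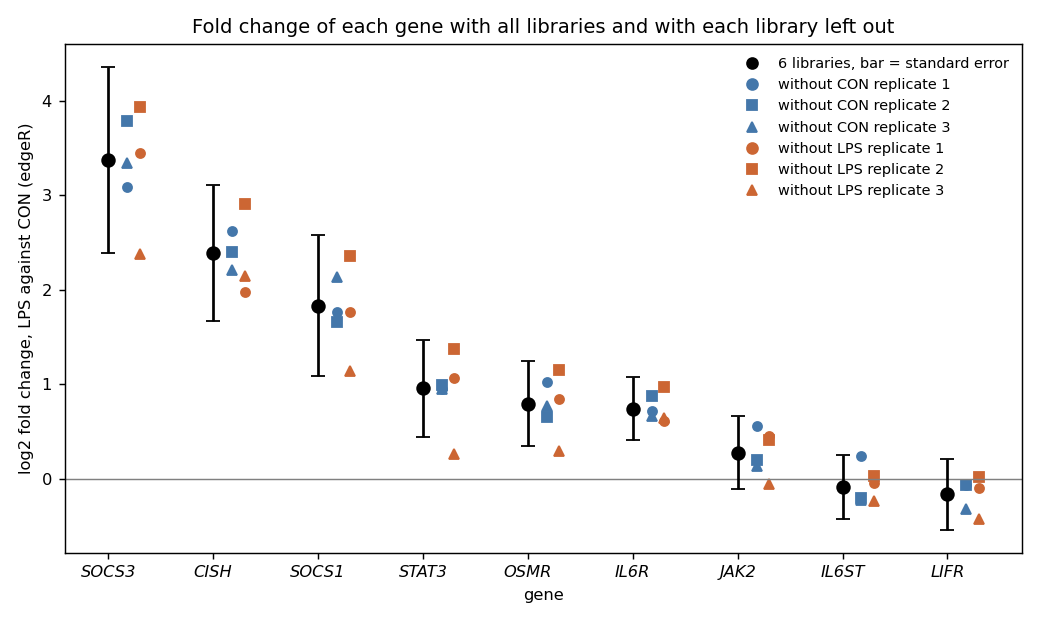
The vertical axis gives the log2 fold change of LPS against CON from edgeR for each of the 9 genes, as a black point with its standard error for all 6 libraries and as coloured symbols for the fits without 1 library. SOCS3, CISH and SOCS1 keep values above 1 in all of these fits, from 1.14 for SOCS1 to 3.94 for SOCS3, whereas STAT3 moves between 0.26 and 1.37.

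Counted by library, LPS replicate 1 was above every CON library for 6 of the 9 members, LPS replicate 2 for 0 and LPS replicate 3 for 8, beside 32.1%, 23.3% and 34.9% of all tested genes. Below every CON library were 0 members in LPS replicates 1 and 3, beside 37.1% and 37.2% of all tested genes, and 3 members in LPS replicate 2 (LIFR, STAT3 and SOCS1), beside 26.5%. The 6 members IL6R, OSMR, STAT3, SOCS1, SOCS3 and CISH were above every CON library in LPS replicates 1 and 3 and not in LPS replicate 2, a pattern that 12.4% of all tested genes had, and in STAT3 and SOCS1 LPS replicate 2 was also below them, as in 3.54% of all tested genes. In 0 members did all 3 LPS libraries lie above all 3 CON libraries, or below them, which held for 6.52% and 9.8% of all tested genes. The fitted log2 fold change was above 0 in 7 of the 9 members and in 50.5% of all tested genes, with medians of 0.80 and 0.01. The median level of the members relative to the CON mean was 0.76, -0.39 and 1.49 on the log2 scale in LPS replicates 1, 2 and 3, while the median of all tested genes lay between -0.06 and -0.01.

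Levels of different genes were compared as CPM per kilobase of exon. In the CON livers STAT3 was the most abundant member at 31.1 ± 1.4 (mean ± SD, n = 3), above SOCS3 at 11.9 ± 5.5 in every library. SOCS3, CISH, IL6R, SOCS1, IL6ST and OSMR followed, from 11.9 down to 4.19, and neighbours in this order overlapped between libraries. JAK2 at 1.35 ± 0.43 and LIFR at 0.838 ± 0.192 (mean ± SD, n = 3) came last and were separated from OSMR and from each other. The chain that binds IL-6 and the shared gp130 chain, at 7.37 ± 1.19 and 6.17 ± 2.25, overlapped between libraries.

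In the LPS livers the order of the means was headed by SOCS3, at 123 ± 120 CPM per kilobase (mean ± SD, n = 3), followed by STAT3 at 60.4 ± 43.9 and CISH at 42.5 ± 31.9. SOCS3 exceeded STAT3 in LPS replicates 1 and 3, with 114 against 52.8 and 248 against 108 CPM per kilobase. In LPS replicate 2, as in all CON libraries, STAT3 was the higher of the pair, at 20.8 against 7.44. The SDs of SOCS3, STAT3 and CISH were large beside their means, and these genes overlapped between libraries. JAK2 and LIFR remained the lowest, at 1.63 ± 0.61 and 0.740 ± 0.228.

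**Figure D3:**
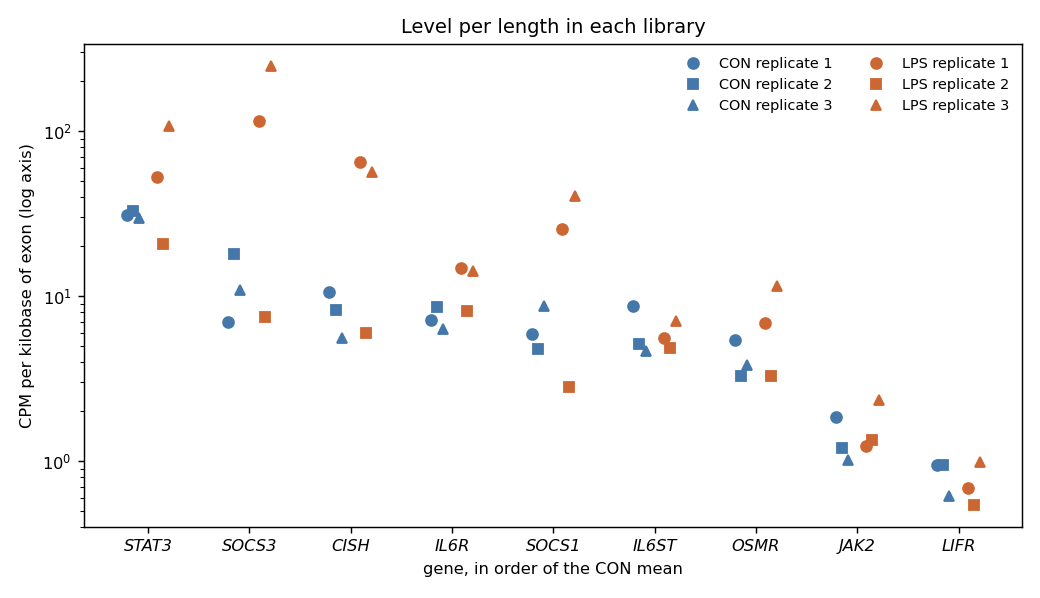
The vertical axis, which is logarithmic, gives CPM per kilobase of exon in each library, blue for CON and orange for LPS, with the genes in order of their CON mean. The orange circle and triangle of SOCS3, at 114 and 248, exceed those of STAT3, at 52.8 and 108, while in the CON libraries STAT3 lies above every other gene shown.

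The other genes of the pathway were taken from lists written from general knowledge, with earlier results of these data known. Shares of a list set beside those of all tested genes are therefore descriptions and no independent test. For 7 of 9 ligands of the family a row was found by symbol, and 4 passed the filter. For IL6 itself the counts were 2, 0 and 1 in CON and 2, 4 and 50 in LPS replicates 1, 2 and 3, too few in most libraries to pass the filter. IL11, whose protein also signals through gp130, had 0, 0 and 2 counts in CON and 0, 0 and 72 in LPS, and LIF had 4, 2 and 1 counts in CON and 0, 4 and 31 in LPS. For each of these 3 cytokines most LPS counts came from LPS replicate 3, the deepest library. Scaled for depth, IL6 had 0.179, 0 and 0.0989 CPM in CON and 0.436, 0.654 and 3.41 CPM in LPS replicates 1, 2 and 3. IL11 and LIF had 4.92 and 2.12 CPM in LPS replicate 3, against at most 0.198 and 0.357 CPM in CON. With no filter edgeR called IL6 and IL11 (adjusted p = 0.00744 and 0.00112) and not LIF (0.384), where it called 2.28% of genes higher. DESeq2 did not call IL6 (adjusted p = 0.0853) or LIF (0.584). It gave no adjusted p for IL11, whose LPS counts all came from LPS replicate 3. No row was found by symbol for OSM and CNTF.

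Among the tested ligands, EBI3, the shared subunit of interleukins 27 and 35, had 4.02, 4.69 and 6.43 CPM in CON and 29.4, 16.0 and 49.0 CPM in LPS. All 3 LPS libraries exceeded all CON libraries, LPS replicate 2 included, as in 6.52% of all tested genes. Its log2 fold change of 2.64 ± 0.46 (unadjusted p = 0.000193) did not pass the adjusted threshold in edgeR (adjusted p = 0.0847), and DESeq2 called it (adjusted p = 1.68e-05), as did edgeR when LPS replicate 2 or 3 was left out (adjusted p = 0.00253 and 0.0378). EdgeR did not call EBI3 without LPS replicate 1 (adjusted p = 0.216) or without any 1 of the CON libraries (adjusted p from 0.267 to 0.586). Limma-voom did not call it either (adjusted p = 0.104). CLCF1, which encodes cardiotrophin-like cytokine, had 10.9, 13.3 and 10.8 CPM in CON and 24.6, 16.9 and 29.5 CPM in LPS. Its groups did not overlap either, and the log2 fold change was 1.03 ± 0.33 (edgeR adjusted p = 0.263). IL27, the partner subunit of EBI3, had 1.25, 1.41 and 2.08 CPM in CON and 1.31, 0.654 and 8.6 CPM in LPS, so its log2 fold change of 1.23 ± 0.82 (edgeR adjusted p = 0.573) came with a high value in LPS replicate 3 alone. IL27 shares 135 of its 1119 exon bases with another gene. CTF1, which encodes cardiotrophin-1, had a log2 fold change of -0.92 ± 0.62 (edgeR adjusted p = 0.579) at 0.751 to 3.28 CPM.

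Of the 4 tested receptor chains outside the members, 0 had an unadjusted p below 0.05, beside 6.18% of all tested genes higher and 6.33% lower. Their median log2 fold change was 0.04, beside 0.01 for all tested genes. IL27RA, the receptor chain for interleukin 27, had a log2 fold change of 0.31 ± 0.37, IL11RA one of 0.34 ± 0.50 and IL31RA one of -0.51 ± 0.91, with edgeR adjusted p of 0.770, 0.816 and 0.847. IL11RA shares 397 of 4878 exon bases with CCL27. The sign of each of these 3 values depended on which library was left out.

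The 9 other Janus kinases and STAT factors had a median log2 fold change of 0.02. At an unadjusted p below 0.05, 1 was higher and 0 lower, beside 6.18% and 6.33% of all tested genes. The higher gene was JAK1, the main kinase of gp130, which had 138, 118 and 128 CPM in CON and 199, 128 and 519 CPM in LPS replicates 1, 2 and 3. LPS replicate 2 was inside the CON range. With all libraries the log2 fold change was 1.14 ± 0.49 (edgeR adjusted p = 0.376). Leaving out LPS replicate 2 brought the edgeR adjusted p to 0.0516, and leaving out LPS replicate 3 brought the log2 fold change to 0.37 (edgeR adjusted p = 0.713). STAT5A, a mediator of growth hormone and other cytokines, had a log2 fold change of 1.07 ± 0.50 (edgeR adjusted p = 0.418), or 0.38 when LPS replicate 3 was left out. TYK2, a kinase also used by interferon receptors, had 44.3, 56.1 and 54.2 CPM in CON and 25.7, 44.2 and 31.8 CPM in LPS. All its LPS libraries were below all CON libraries, and the log2 fold change of -0.60 ± 0.31 did not pass the test (edgeR adjusted p = 0.468). This placement held for 2 of the 9 genes of the list and for 9.8% of all tested genes.

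Among the 13 other negative regulators, which include SOCS4 to SOCS7, the PIAS proteins and tyrosine phosphatases, the median log2 fold change was 0.03. At an unadjusted p below 0.05, 1 gene was higher and 0 lower, beside 6.18% and 6.33% of all tested genes. That gene was PTPN1, which encodes the phosphatase PTP1B, with 25.6, 29.5 and 38.0 CPM in CON and 60.0, 30.4 and 231 CPM in LPS replicates 1, 2 and 3. Its log2 fold change was 1.79 ± 0.65 (edgeR adjusted p = 0.316), with 2.24 (edgeR adjusted p = 0.0238, called) when LPS replicate 2 was left out and 0.56 (edgeR adjusted p = 0.596) when LPS replicate 3 was. PTPN2, a phosphatase of Janus kinases and STATs, had a log2 fold change of 0.92 ± 0.47 (edgeR adjusted p = 0.466). It was called when LPS replicate 2 was left out (1.31, edgeR adjusted p = 0.0484), and leaving out LPS replicate 3 gave 0.32 (edgeR adjusted p = 0.803). SH2B3, an adaptor that restrains JAK2, had one of -0.38 ± 0.28 (edgeR adjusted p = 0.612). All LPS libraries of SH2B3 were below all CON libraries, as in 9.8% of all tested genes. The 4 distant SOCS relatives had values from -0.46 for SOCS4 to 0.37 for SOCS7 and none reached an unadjusted p of 0.05.

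Genes known to respond to STAT3 formed the longest list. For 21 of its 26 genes a row was found by symbol, and 20 were tested. Of these, 18 had a log2 fold change above 0, with a median of 1.47, and 13 were higher and 0 lower at an unadjusted p below 0.05, beside 6.18% and 6.33% of all tested genes. EdgeR called 1 of them, LCN2, which encodes the iron-withholding protein lipocalin 2, with 2.95, 5.00 and 4.94 CPM in CON and 114, 29.4 and 129 CPM in LPS (log2 fold change 4.41 ± 0.58, edgeR adjusted p = 0.0379). LCN2 lost its call when LPS replicate 1 (adjusted p = 0.165) or any 1 of the CON libraries (adjusted p from 0.155 to 0.543) was left out of the edgeR fit, with log2 fold changes from 4.18 to 4.55. DESeq2 called 9 of the list higher, beside 1.91% of the genes with an adjusted p, and edgeR without LPS replicate 2 called 13, beside 3.76% of the genes tested there. TIMP1, an inhibitor of metalloproteinases, had 16.0, 16.7 and 32.2 CPM in CON and 578, 175 and 2276 CPM in LPS replicates 1, 2 and 3 (log2 fold change 5.54 ± 0.93, edgeR adjusted p = 0.0847). ITIH4, an acute phase protein of the pig, had 2062, 1885 and 2820 CPM in CON and 12627, 5574 and 11326 CPM in LPS (log2 fold change 2.13 ± 0.41, edgeR adjusted p = 0.0982). DESeq2 called both, as did edgeR without LPS replicate 2 (adjusted p = 0.000962 and 0.00654), and edgeR without LPS replicate 3 called TIMP1 alone of the pair (adjusted p = 0.021 and 0.061).

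Of the 20 tested genes of this list, LPS replicate 1 was above every CON library for 16, LPS replicate 2 for 6 and LPS replicate 3 for 19, beside 32.1%, 23.3% and 34.9% of all tested genes. LPS replicate 2 was below every CON library for 8 of them, beside 26.5%, and within the CON range for 6. The 6 genes above every CON library in LPS replicate 2 were FGB, FGG, CRP, ITIH4, LCN2 and TIMP1. The 8 genes below every CON library in LPS replicate 2 were HAMP, ITIH3, JUNB, FOS, MYC, PIM1, BCL3 and IRF1. Within the range were LBP, HPX, CD14, BCL6, CEBPB and CEBPD. These sets were named after their values were seen and carry no test. Of the second set, ITIH3 shares 6064 of its 10072 exon bases with ITIH1 and 1392 with ITIH4, and JUNB shares 331 of 1044 with HOOK2, so the counts of ITIH3 and JUNB are uncertain. ITIH4, of the first set, shares 1392 of its 7505 exon bases with ITIH3 and 358 with ITIH1. Over all libraries ITIH3 and ITIH1 held 6122 and 142 counts, against 321522 for ITIH4. SOCS1 and STAT3 were with the second set in LPS replicate 2, and SOCS3 and CISH inside the CON range.

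**Figure D4:**
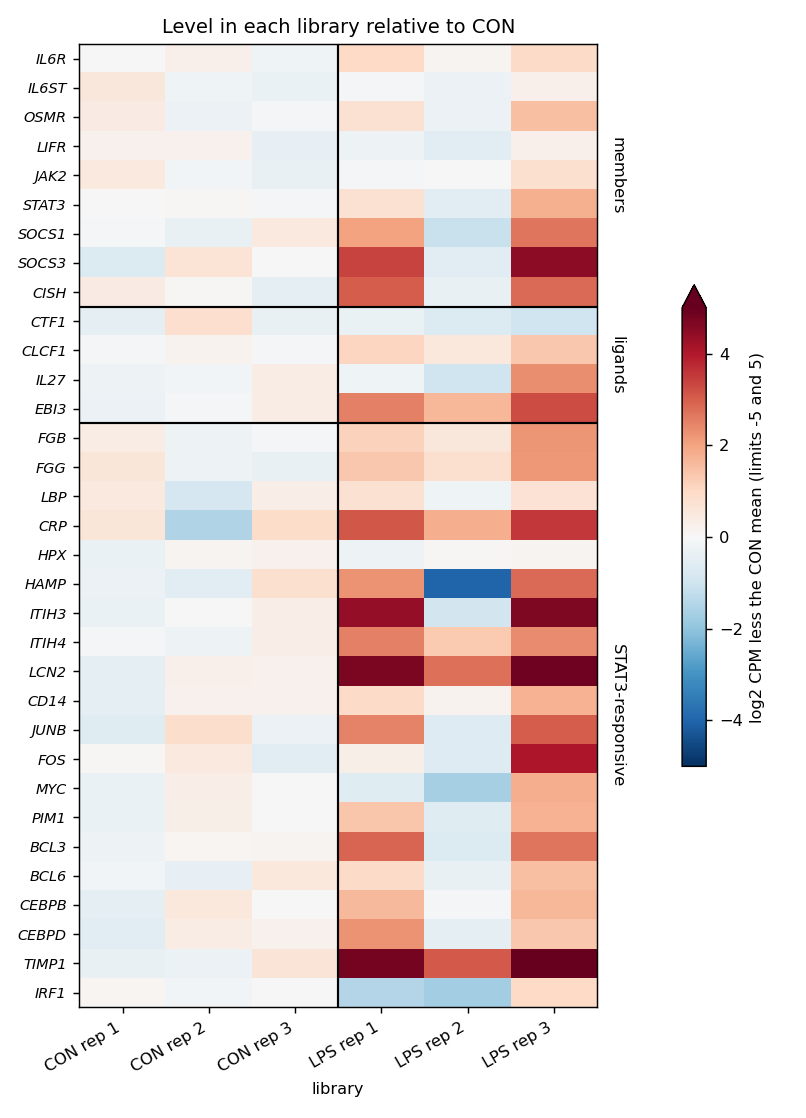
Rows are the 9 members, the 4 tested ligands and the 20 tested STAT3-responsive genes, columns are the 6 libraries, and colour gives log2 CPM less the CON mean, red for higher and blue for lower, with values past 5 drawn at the limit. In LPS replicate 2 SOCS1, SOCS3 and CISH are pale or blue, as are HAMP and BCL3, while EBI3, CRP, LCN2 and TIMP1 are red in all 3 LPS libraries.

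STAT5 is the factor best known for driving CISH, so genes of the growth hormone and STAT5 axis were listed too. Of 5 tested genes, 3 had a log2 fold change above 0 and the median was 0.05. An unadjusted p below 0.05 was reached by 0 of them, beside 6.18% of all tested genes higher and 6.33% lower. IGF1, which encodes the main growth factor that the liver makes in response to growth hormone, had 2.68, 1.41 and 1.78 CPM in CON and 10.2, 5.07 and 1.37 CPM in LPS replicates 1, 2 and 3. LPS replicate 3 was just below every CON library for IGF1, and LPS replicates 1 and 2 were above all of them. The counts were low, 9 to 30 in the CON libraries. For this gene the log2 fold change was 1.44 ± 0.68 (edgeR adjusted p = 0.430), or 0.66 when LPS replicate 1 and 1.95 when LPS replicate 3 was left out. ONECUT1, a hepatocyte transcription factor, had one of -0.29 ± 0.36, and PRLR, the prolactin receptor, one of 0.31 ± 0.81, with edgeR adjusted p of 0.778 and 0.908.

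**Figure D5:**
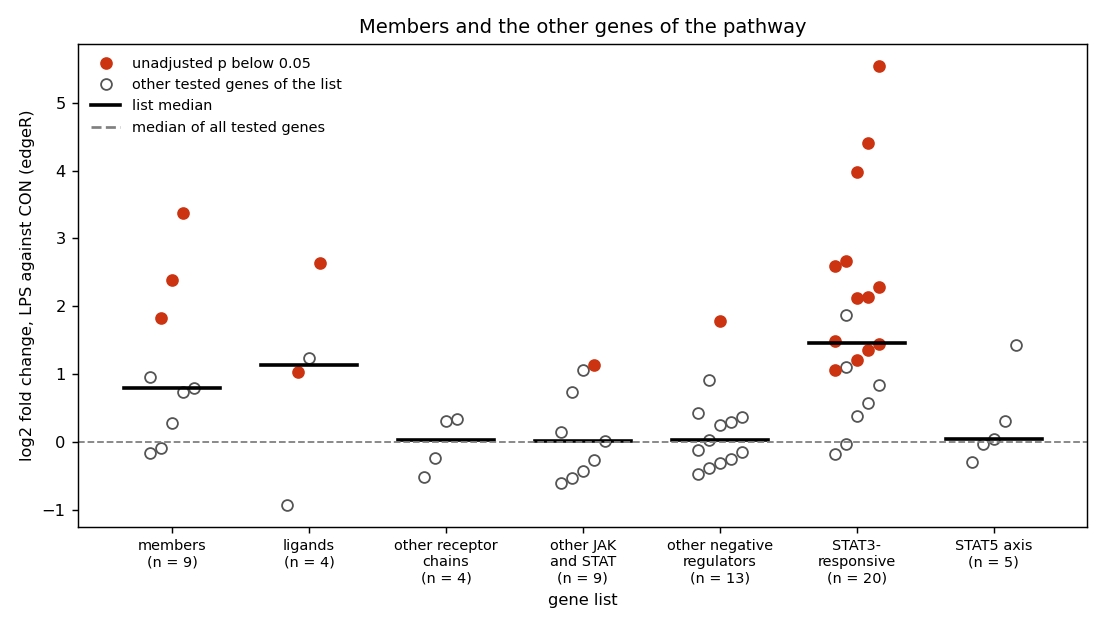
Each point is the log2 fold change of LPS against CON (edgeR) of 1 tested gene, filled red at an unadjusted p below 0.05, with the list median as a black bar and the median of all tested genes, 0.01, as a dashed line. The members (median 0.80), the ligands (1.13) and the STAT3-responsive genes (1.47) lie above the dashed line, and the medians of the other 4 lists lie between 0.02 and 0.05.

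The genes with a symbol whose level followed that of SOCS3 most closely over the 6 libraries were GADD45B, GPR84, ADAMTS4 and RRAD. Likeness was measured as the root mean square difference of log2 CPM less the CON mean, over 10755 candidate genes, and was 0.454, 0.479, 0.512 and 0.547 for these 4 genes. GADD45B, a stress-inducible gene, had 10.5, 12.7 and 16.1 CPM in CON and 87.7, 8.83 and 362 CPM in LPS replicates 1, 2 and 3. CISH was 30th in this order and SOCS1 67th. GPR84, ADAMTS4 and RRAD had few counts, 3 to 19 in the CON libraries and 11, 5 and 9 in LPS replicate 2. In LPS replicate 2 their log2 levels less the CON mean were 0.41, 0.21 and 0.38, where SOCS3 was at -0.57. For STAT3 the 4 closest genes were CSF1, PTPN2, NR5A2 and RGCC, at 0.067, 0.097, 0.170 and 0.179. CSF1, the macrophage colony-stimulating factor, had 65.2, 70.3 and 66.1 CPM in CON and 106, 42.7 and 248 CPM in LPS replicates 1, 2 and 3, close to the proportions of STAT3. OSMR was 43rd in the order for STAT3. These 6 points share libraries and depth, and the order is a description.

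Cell type markers were followed beside these values. The summed level of 8 neutrophil genes was 15.2 to 26.3 CPM in CON and 173, 75.3 and 316 CPM in LPS replicates 1, 2 and 3. Of the list, 5 of 6 tested genes were higher at an unadjusted p below 0.05, beside 6.18% of all tested genes. The other tested gene, ELANE, had a log2 fold change of -0.66 ± 0.63 (edgeR adjusted p = 0.706). MMP8 and MPO fell below the filter. MMP8 had 0 counts in every CON library. MPO had 1.16, 0.781 and 0.989 CPM in CON and 1.09, 0.491 and 0.273 CPM in LPS replicates 1, 2 and 3. In LPS replicate 2 the neutrophil sum was above every CON library, while SOCS1, SOCS3 and CISH were not. MMP9 was within the CON range in that library. The summed red cell and platelet list was 78.7 to 104 CPM in CON and 250, 99.8 and 368 CPM in LPS replicates 1, 2 and 3. Its genes differed in LPS replicate 2. There HBB and HBM, at 72.6 and 11.9 CPM, were above every CON library, as in the other LPS libraries. ALAS2, at 14.4 CPM, was below every CON library in LPS replicate 2. SLC4A1 and PPBP fell below the filter. The Kupffer cell or macrophage list had 11 of 11 tested genes with a log2 fold change below 0 (median -0.48), beside 6326 of all 12774 tested genes. At an unadjusted p below 0.05, 3 of the 11 were lower, beside 6.33% of all tested genes. The summed level of this list was 2011 to 3261 CPM in CON and 1376, 2316 and 1888 CPM in LPS replicates 1, 2 and 3, so the groups overlapped. The lists for hepatocytes, endothelial cells, T and NK cells, B and plasma cells, and cholangiocytes and stellate cells had medians of -0.29, -0.46, -0.26, -0.22 and 0.21. The part of cell composition in the values of the members was not tested.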

How the data were processed

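RNA-seq of the input fraction was analysed for 3 CON and 3 LPS liver libraries. The authors deposited raw counts per Ensembl gene as whole numbers without normalization, with coordinates and exon length. Per the labels, a directional library kit was used. The submitters' processing notes name cutadapt 1.9.3, HISAT2 and the builds galGal6 and hg38, neither of which is a pig build. The pig build, the counting program, its strand setting and its treatment of reads on several genes are not stated in what was read here. CON replicates 1 and 2 have several sequencing entries in the labels but a single column. Unmapped sample columns numbered 0. Symbols were paired with 15029 of the 31908 identifiers. Listed genes were looked up by symbol, so a gene without a row found may stand under an identifier that has no symbol. No library was a repeat of another (chi-square per gene of 51.8 or more within groups).

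Tests on the counts used edgeR 4.0.16 in R 4.3.3 (filterByExpr with a minimum count of 10, TMM, robust dispersions, glmQLFit and glmQLFTest). DESeq2 1.42.0 and limma-voom (limma 3.58.1) were alternatives, beside RLE or total count scaling, no filter, at least 10 counts in every library, a replicate block, each library left out, and no fold threshold or a 2-fold one. DESeq2 without LPS replicate 2 was added after the data were seen. Calls needed a Benjamini-Hochberg adjusted p below 0.05 over all tested genes and a fold above 1.5. For edgeR, a standard error is the size of the log2 fold change over the root of its F statistic. Relative log2 levels used a prior count of 2. The fits were tested on simulated data. Members, pathway lists and marker lists were chosen with earlier results of these data known. Named genes were the members, ligands with counts, up to 3 tested genes of each other pathway list with the smallest unadjusted p, and the 4 genes closest in pattern to SOCS3 and to STAT3. Exact permutation of 3 against 3 libraries allows no two-sided p under 0.1, so it was not run. Promoter and protein sequences were not analysed here.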

Additional observations from a re-analysis of the deposited data

How the results depend on the processing

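The call of the SOCS genes depended on single libraries and on the tool, and the causes were not tested. With all genes, 7 were called higher and 0 lower. Total count scaling gave 11 and 1, RLE 1 lower, no filter 536 and 349, at least 10 counts in every library 0 higher, DESeq2 275 and 143, limma-voom 2 higher, and DESeq2 without LPS replicate 2 gave 780 and 736. Leaving out each library in turn gave 0 to 512 higher and 0 to 470 lower genes. Of the members, 0 were called higher, against 3 with no filter, 1 with DESeq2, 5 with DESeq2 without LPS replicate 2, and 0 to 3 when each library was left out, the 3 being SOCS3, CISH and SOCS1 without LPS replicate 2. No setting called a member lower. With each library left out, the log2 fold change ranged from -0.23 to 0.25 for IL6ST, -0.43 to 0.022 for LIFR, -0.056 to 0.56 for JAK2, -0.0105 to 0.51 for IL27RA, -0.043 to 0.78 for IL11RA, -1.95 to 0.18 for IL31RA, -0.18 to 1.93 for PRLR, 0.56 to 2.24 for PTPN1, 0.32 to 1.31 for PTPN2, 0.38 to 1.46 for STAT5A and 0.66 to 1.95 for IGF1. The median was 1.01 to 1.78 for the STAT3-responsive genes and 1.07 to 1.94 for the ligands. DESeq2 without LPS replicate 2 also turned the sign of IL6ST (0.075) and LIFR (0.062). Total count scaling moved the median of all tested genes from 0.01 to -0.12, and the values of the members by a like amount or more, to 3.06 for SOCS3 and 0.69 for STAT3.

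With the replicate number as a block, 42 genes were called higher and 9 lower, and 0 members. Of the pathway genes named, the block also called EBI3, ITIH4 and TIMP1 (edgeR adjusted p = 0.0329, 0.0452 and 0.00471). Libraries with the same number did not deviate together (correlations of -0.24, 0.22 and 0.03 across genes for numbers 1, 2 and 3), so the numbers were not taken as pairs. Depth limits IL6, IL11 and LIF, which fell below the filter.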

Other observations

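IRF1, a transcription factor best known from interferon signaling, had 136, 116 and 130 CPM in CON and 46.0, 38.0 and 252 CPM in LPS replicates 1, 2 and 3, so LPS replicates 1 and 2 were below every CON library and LPS replicate 3 above. In LPS replicate 1 SOCS1 was 3.95-fold above the CON mean, where IRF1 was at 0.362 of it. This gene was singled out after its values were seen.

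MCL1, a survival factor used by most cells, was on the list of STAT3-responsive genes and had 0 counts in all 6 libraries. All 4427 of its exon bases are also assigned to ENSA in the table, so its 0 says nothing of its level.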
